A study of Homo sapiens with 4 samples.

Results

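TFF1, TFF2, TFF3, GAST, SPINK4, AGR2, AGR3, REG4 and FCGBP are genes whose products are secreted at mucosal surfaces or help to fold what is secreted there, and their transcripts were followed in HT8 cells. These 9 genes, of 58735 in the deposited tables, were chosen by name with their measured levels in the groups described here already known, for the opposite differences between neighbouring trefoil genes. Their group differences are therefore descriptions and carry no test, and no numeric threshold was part of the choice. HT8 is labelled as a cell line, with colon cancer as its tissue. RNA was sequenced from 4 libraries, 2 with the genotype control and the source HT8, and 2 with the genotype PPDPF knockdown and the source HT8-cas1. The labels do not say what HT8-cas1 stands for, how PPDPF was to be lowered, whether the knockdown group is 1 clone, or whether its libraries, or the control libraries, are separate cultures. P-values therefore reflect how far the libraries of a group lie apart, and that distance may be technical.

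Trefoil peptides are small, disulfide-bonded proteins secreted with mucus and known for the repair of mucosal surfaces. In the gut wall, TFF1 belongs to the surface mucous cells of the stomach, TFF2 to its gland mucous cells and TFF3 to the goblet cells of the intestine. Gastrin is a peptide hormone of the gastric antrum that stimulates acid secretion through the receptor CCKBR, and its precursor must be cut and amidated to become active. AGR2 is a protein disulfide isomerase of the endoplasmic reticulum that is required for mucin production in goblet cells, while SPINK4, REG4 and FCGBP are secreted products of the intestinal secretory lineage.

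The libraries held 17348315 and 19479906 reads in genes for the controls, and 17330674 and 17069628 for the libraries labelled knockdown. Mitochondrial genes took 2.87% and 2.76% of these reads in the controls and 2.35% and 2.19% in the libraries labelled knockdown, and the part of that difference in the results was not tested. The targeted gene did not match the label. PPDPF had 237 and 266 FPKM (fragments per kilobase of exon, scaled to library size) in the controls and 281 and 283 FPKM in the libraries labelled knockdown, a difference in log2(FPKM + 1) of 0.16 (SE 0.06, limma adjusted p = 0.0940). The difference was 0.08 without control replicate 1 (limma adjusted p = 0.190) and 0.25 without control replicate 2 (limma adjusted p = 0.0233). The direction of each comparison below rests on those labels. Of 10 markers of intestinal epithelium, 9 had a mean of at least 1 FPKM. The summed level of the 10 ran from 1907 to 2059 FPKM in the controls and from 2207 to 2241 FPKM in the libraries labelled knockdown. KRT8 and KRT18 made up most of each sum, and the other markers did not all differ in the same direction. CDX1 had 3.17 and 3.73 against 6.03 and 5.94 FPKM, and CDX2 42.4 and 49.2 against 41.8 and 39.2 FPKM. Of 9 goblet cell markers only TFF3 and SPINK4 reached a mean of 1 FPKM. CLCA1 and ATOH1 were at 0 in each library, MUC2 was at most 0.165 FPKM and SPDEF at most 0.505 FPKM. The defining markers of goblet cells were thus at or near 0, and "goblet" below names where a gene is known from, not the cells sequenced. Markers of leukocytes summed to 2.54 and 2.38 FPKM in the controls and to 1.42 and 1.21 FPKM in the other libraries. Most of each sum was CD14, and PTPRC and CD3E were at 0. Paneth cell markers summed to 8.86 and 9.32 against 4.04 and 4.26 FPKM, nearly all of it PLA2G2A, with DEFA5 and DEFA6 at 0. Gastric markers summed to 1.64 and 1.68 against 0.734 and 0.979 FPKM, mostly MUC5AC, with GKN1 and GKN2 at 0. Fibroblast markers summed to 0.640 and 0.723 against 0.377 and 0.504 FPKM (COL1A2 and DCN at 0). Endothelial markers summed to 0.436 and 0.431 against 0.641 and 0.588 FPKM (CDH5 and KDR at 0). The part of these markers in the results was not tested.

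To show the DNA in front of the genes that differed in opposite directions, the 250 bases before the start site are given for GAST and SPINK4, which were higher in the libraries labelled knockdown, for AGR2, which was lower, and for AGR3, the nearly silent neighbour of AGR2. The sequences are from RefSeq on GRCh38.p14, whose promoter table held 6 of the 9 genes, and run 5′ to 3′ on the strand of the gene. The start is that of RefSeq, and for SPINK4 and AGR2 it lies well inside the GENCODE span given for the gene below, whose outermost start is farther upstream. For GAST and AGR3 the RefSeq start lies only a few bases inside that span. The sequences lie at chr17:41712081-41712330 (plus strand) for GAST, chr9:33239917-33240166 (plus strand) for SPINK4, chr7:16805000-16805249 (minus strand) for AGR2 and chr7:16881984-16882233 (minus strand) for AGR3. Capitals mark matches, on either strand, to any of 8 motifs. The core promoter motifs searched were the TATA box, spelled TATAAA, the CCAAT box, spelled as it is named, and the GC box, spelled GGGCGG. The factor motifs searched were that of FOXA proteins, spelled TGTTTAC, that of GATA factors, spelled AGATAA, that of AP-1, spelled TGANTCA, that of STAT factors, spelled TTCNNNGAA, and that of the unfolded protein response, spelled TGACGTG.
GAST: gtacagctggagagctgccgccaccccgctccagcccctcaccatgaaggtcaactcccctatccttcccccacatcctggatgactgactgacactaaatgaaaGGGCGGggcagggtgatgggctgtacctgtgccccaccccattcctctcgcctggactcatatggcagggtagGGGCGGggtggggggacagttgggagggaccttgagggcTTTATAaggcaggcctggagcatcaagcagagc
SPINK4: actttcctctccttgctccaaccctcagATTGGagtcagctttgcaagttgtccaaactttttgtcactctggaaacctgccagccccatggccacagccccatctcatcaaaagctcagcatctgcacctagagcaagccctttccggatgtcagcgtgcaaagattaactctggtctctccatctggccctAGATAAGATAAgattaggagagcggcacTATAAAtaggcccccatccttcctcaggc
AGR2: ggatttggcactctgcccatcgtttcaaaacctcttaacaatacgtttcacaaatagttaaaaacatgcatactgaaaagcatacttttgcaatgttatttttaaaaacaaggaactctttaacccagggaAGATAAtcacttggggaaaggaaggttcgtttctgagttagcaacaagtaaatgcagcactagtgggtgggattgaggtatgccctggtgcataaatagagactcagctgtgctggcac
AGR3: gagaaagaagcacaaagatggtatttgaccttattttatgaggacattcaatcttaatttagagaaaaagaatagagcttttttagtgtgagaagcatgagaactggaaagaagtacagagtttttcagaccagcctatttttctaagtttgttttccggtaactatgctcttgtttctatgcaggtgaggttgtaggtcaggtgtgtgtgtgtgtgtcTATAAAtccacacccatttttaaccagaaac

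Counting the base before the start as -1, the GAST promoter held TATAAA on the opposite strand (read as TTTATA above) at -33 to -28 and GGGCGG at -145 to -140 and at -72 to -67. The SPINK4 promoter held TATAAA at -29 to -24, CCAAT on the opposite strand at -222 to -218, and 2 overlapping AGATAA matches at -57 to -52 and at -52 to -47. In AGR2 the search matched AGATAA alone, at -119 to -114, and in AGR3 TATAAA alone, at -31 to -26. The base composition of these windows differed widely, with a GC content of 61.6% for GAST, 50.8% for SPINK4, 40.4% for AGR2 and 36.4% for AGR3. Of 35116 promoter windows of the same length, 10.7% held TATAAA, 32.0% CCAAT, 42.6% GGGCGG and 9.17% AGATAA. The GATA motif was thus found before a gene that was higher and a gene that was lower, and a match describes the letters in the window only. TGTTTAC, TTCNNNGAA and TGACGTG, present in 2.98%, 6.57% and 1.68% of all windows, had no match in GAST, SPINK4, AGR2, AGR3, REG4 or FCGBP. TGANTCA, present in 6.57%, was matched in REG4 alone.

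TFF1 had the highest FPKM of the 9 genes in the libraries labelled knockdown, in which the trefoil genes beside it were lower than in the controls. TFF1 (ENSG00000160182; GRCh38 chromosome 21, 42362282 to 42366594, minus strand) had 54.1 and 56.1 FPKM in the controls and 208 and 223 FPKM in the libraries labelled knockdown, from 524, 607, 1976 and 2083 reads. The controls were nearly equal, and both libraries labelled knockdown lay far above them. Group means were 55.1 ± 1.39 and 215 ± 10.7 FPKM (SD, n = 2 libraries each here and below), a ratio of 3.91, and the difference in log2(FPKM + 1), the scale used for all such differences below, was 1.95. Among all genes ranked by FPKM, TFF1 stood at 739 and 705 in the controls and at 128 and 124 in the libraries labelled knockdown. In bulk RNA such as this, a different number of cells that express a gene and a different amount of RNA per cell cannot be told apart.

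TFF2 (ENSG00000160181; chromosome 21, 42346357 to 42351128, minus strand) had 10.003 and 13.8 FPKM in the controls and 3.77 and 5.47 FPKM in the libraries labelled knockdown, from 146, 225, 54 and 77 reads. Both libraries labelled knockdown were below both controls, although the controls themselves differed. Their 95% Poisson intervals, which cover counting error only, were 8.45 to 11.8 and 12.0 to 15.7 FPKM and did not overlap. Means were 11.9 ± 2.68 and 4.62 ± 1.20 FPKM, a ratio of 0.388 and a log2 difference of -1.20.

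TFF3 (ENSG00000160180; chromosome 21, 42311667 to 42315651, minus strand) had 5.89 and 4.14 FPKM in the controls and 1.59 and 1.87 FPKM in the libraries labelled knockdown, from 121, 95, 32 and 37 reads. As with TFF2, the groups did not overlap and both libraries labelled knockdown were low, but here the first control was the higher one. Means were 5.01 ± 1.24 and 1.73 ± 0.199 FPKM, a ratio of 0.345 and a log2 difference of -1.13.

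**Figure D1:**
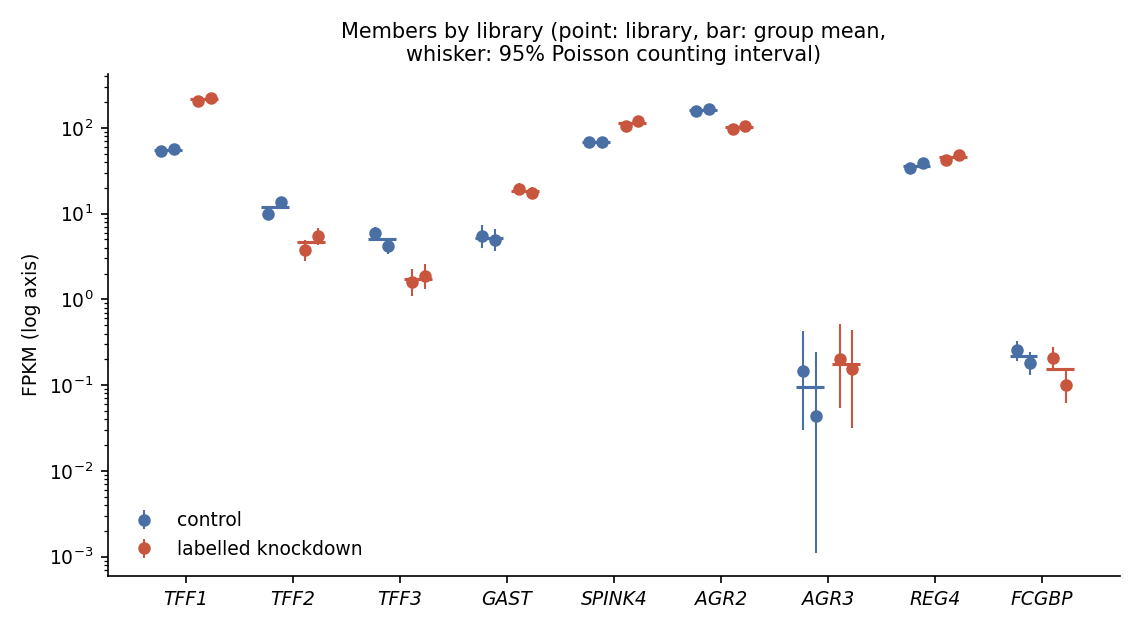
FPKM of each of the 9 genes in each library on a log axis, with points for libraries, short bars for group means and whiskers for the 95% Poisson counting interval. TFF1, GAST, SPINK4 and REG4 lie higher in both libraries labelled knockdown, TFF2, TFF3 and AGR2 lie lower, and AGR3 and FCGBP stay under 0.3 FPKM.

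The make-up of the trefoil transcripts differed accordingly. The summed FPKM of the 3 genes was 69.97 and 74.0 in the controls and 213 and 230 in the libraries labelled knockdown. TFF1 made up 77.3% and 75.8% of that sum in the controls and 97.5% and 96.8% in the libraries labelled knockdown, with means of 76.5 ± 1.08% and 97.1 ± 0.476%. The share of TFF2 was 14.3% and 18.6% against 1.77% and 2.38%, and that of TFF3 was 8.42% and 5.59% against 0.745% and 0.811%. A sizeable minority of the trefoil FPKM in the controls was thus not from TFF1, and very little was not in the libraries labelled knockdown.

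For each unit of TFF3 there were 9.18 and 13.5 units of TFF1 in the controls, and 131 and 119 in the libraries labelled knockdown. The ratio of TFF1 to TFF2 was 5.41 and 4.06 in the controls and 55.1 and 40.7 in the libraries labelled knockdown. In contrast, the ratio of TFF2 to TFF3 was 1.70 and 3.33 against 2.37 and 2.93, so that the values of one group lay within the range of the other. TFF2 and TFF3 were therefore lower by amounts that these libraries do not separate (mean ratios 2.52 ± 1.16 and 2.65 ± 0.392).

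**Figure D2:**
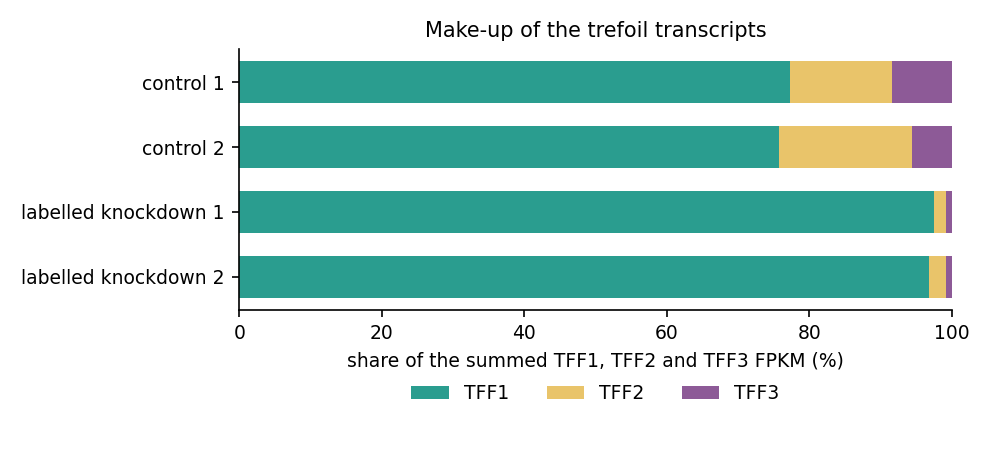
Share of the summed FPKM of the trefoil genes held by TFF1, TFF2 and TFF3 in each library, in percent. TFF1 holds 77.3% and 75.8% in the controls and 97.5% and 96.8% in the libraries labelled knockdown.

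The trefoil genes lie in a row on the minus strand of chromosome 21. From the first base of TFF3 to the last of TFF1 the row spans 54928 bases, with 30705 bases between TFF3 and TFF2 and 11153 between TFF2 and TFF1. None of the 50-base words in the transcripts of the 9 genes occurred in an annotated transcript of another gene. Within 250 kb of a trefoil gene lay 6 other protein-coding genes, of which 2 passed the filter of a mean of at least 1 FPKM and 0 were called in limma's moderated test (adjusted p under 0.05, used for all calls below). Both had an unadjusted p under 0.05, and limma-voom on the recovered reads called both lower. TMPRSS3, a membrane serine protease directly beside TFF1, had 1.99 ± 0.236 and 1.19 ± 0.275 FPKM (log2 difference -0.46, limma adjusted p = 0.0653, limma-voom 0.000995). SLC37A1, a sugar phosphate transporter, had 6.05 ± 0.0292 and 5.32 ± 0.0484 FPKM (log2 difference -0.16, limma adjusted p = 0.0761, limma-voom 0.0229). ABCG1, the lipid transporter gene on the other side of the row, beside TFF3, was under the filter, at 0.304 ± 0.181 and 0.911 ± 0.184 FPKM. Across the 13 tested genes within 1 Mb the median log2 difference was 0.03, with 3 that rose and 1 that fell.

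**Figure D3:**
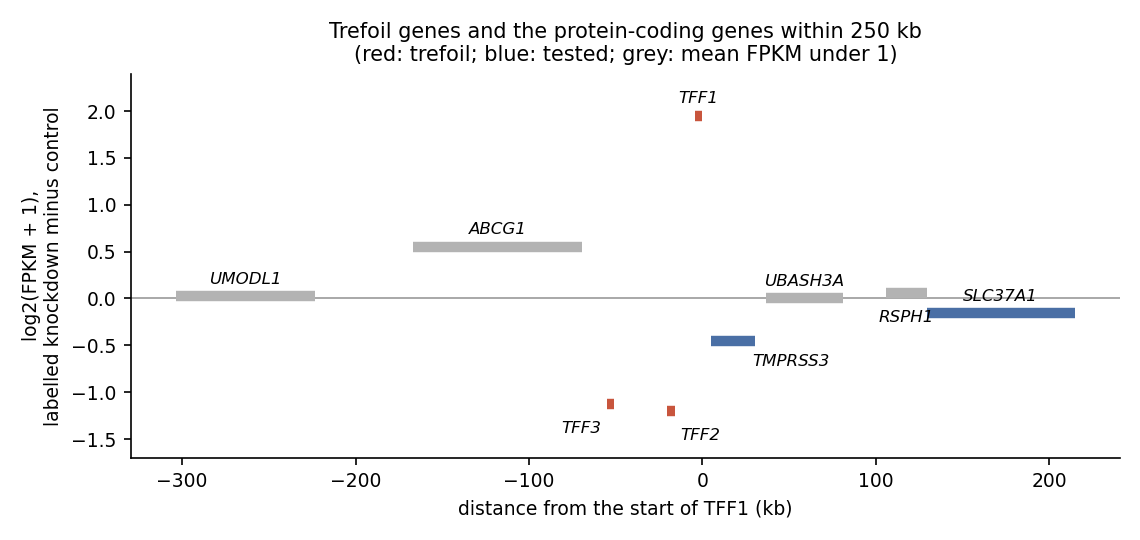
Difference in log2(FPKM + 1) between the libraries labelled knockdown and the controls for the trefoil genes and the protein-coding genes within 250 kb, against distance from TFF1 in kilobases, each bar as long as its gene. TFF1 stands at 1.95 and TFF2 and TFF3 at -1.20 and -1.13, and the tested genes beside them, TMPRSS3 and SLC37A1, at -0.46 and -0.16.

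GAST, which encodes gastrin, was low in the controls and moderate in the libraries labelled knockdown. GAST (ENSG00000184502; chromosome 17, 41712326 to 41715969, plus strand) had 5.44 and 4.98 FPKM in the controls and 19.6 and 17.4 FPKM in the libraries labelled knockdown, from 45, 46, 159 and 139 reads. Libraries of a group were close together and the groups lay far apart. The 95% Poisson intervals of the controls, 3.97 to 7.29 and 3.65 to 6.64 FPKM, stayed below those of the libraries labelled knockdown, 16.7 to 22.9 and 14.7 to 20.6 FPKM. Means were 5.21 ± 0.329 and 18.5 ± 1.53 FPKM, a ratio of 3.55 and a log2 difference of 1.65. Its rank among all genes went from 7503 and 7880 to 2661 and 3051.

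Directly beside GAST, EIF1, a translation initiation factor, had a log2 difference of 0.07 (limma adjusted p = 0.157), and HAP1 was under the filter at 0.954 ± 0.112 and 0.418 ± 0.0384 FPKM. Over all genes tested 16.8% rose and 13.0% fell, the shares to set beside each count of neighbours here. Around all 9 members together, 31 neighbours were tested, of which 5 rose and 10 fell. Of 20 protein-coding genes within 250 kb of GAST, 10 were tested, of which 2 rose and 5 fell. JUP, the junction protein plakoglobin, rose (log2 0.42, limma adjusted p = 0.00186), as did KRT19, a keratin of simple epithelia (log2 0.38, limma adjusted p = 0.00306). FKBP10 and P3H4, both known for collagen modification, fell (log2 -0.49 and -0.35, limma adjusted p = 0.00458 and 0.00669), and so did ACLY, the ATP citrate lyase (log2 -0.29, limma adjusted p = 0.00341). KRT17, a stress-associated keratin, fell (log2 -0.68, limma adjusted p = 0.0129), but its p was 0.0602 without control replicate 2 and 0.0540 without the labelled knockdown replicate 2. KLHL11 fell as well (log2 -0.30, limma adjusted p = 0.0410), with a p of 0.0887 without control replicate 1, 0.156 without control replicate 2 and 0.127 without the labelled knockdown replicate 2. The median log2 difference over the 40 tested genes within 1 Mb of GAST was -0.03.

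SPINK4, a secreted Kazal-type peptide of goblet cells, was well expressed in the controls and higher in the libraries labelled knockdown. SPINK4 (ENSG00000122711; chromosome 9, 33218365 to 33248567, plus strand) had 67.7 and 68.5 FPKM in the controls and 106 and 121 FPKM in the libraries labelled knockdown, from 779, 880, 1198 and 1343 reads. The controls were equal within counting error, the groups did not overlap, and the second library labelled knockdown was the highest. Means were 68.1 ± 0.515 and 114 ± 10.6 FPKM, a ratio of 1.67 and a log2 difference of 0.73. The span of SPINK4 overlaps BAG1 on the other strand, with 0 shared exon bases, and BAG1 had 16.5 ± 0.484 and 15.5 ± 0.439 FPKM.

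Of 10 protein-coding genes near SPINK4, 9 were tested, of which 2 rose and 2 fell. B4GALT1, a galactosyltransferase, rose (log2 0.35, limma adjusted p = 0.00400), and AQP3, a water and glycerol channel, fell from 32.6 ± 0.952 to 16.6 ± 1.02 FPKM (log2 -0.93, limma adjusted p = 0.00119). CHMP5 rose (log2 0.21, limma adjusted p = 0.0188) but had a p of 0.0714 without control replicate 1, 0.0881 without the labelled knockdown replicate 1 and 0.0597 without the labelled knockdown replicate 2. NOL6 fell (log2 -0.23, limma adjusted p = 0.0156), with a p of 0.0520 and 0.0753 without control replicate 1 or 2 and of 0.0737 and 0.0647 without the labelled knockdown replicate 1 or 2. The genes around SPINK4 thus moved in both directions, with a median log2 difference of 0.08 over the 22 tested within 1 Mb.

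AGR2, with the highest FPKM of the 9 genes in the controls, was lower in the libraries labelled knockdown. AGR2 (ENSG00000106541; chromosome 7, 16791811 to 16833433, minus strand) had 157 and 164 FPKM in the controls and 96.2 and 106 FPKM in the libraries labelled knockdown, from 7835, 9164, 4725 and 5126 reads. The groups did not overlap, and counting error was small in each library. Means were 160.2 ± 5.15 and 101 ± 7.09 FPKM, a ratio of 0.632 and a log2 difference of -0.66. Its rank among all genes went from 184 and 175 to 337 and 305.

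Its paralog AGR3 (ENSG00000173467; chromosome 7, 16859405 to 16881987, minus strand) lies 25971 bases from AGR2. AGR3 had 3 and 1 reads in the controls and 4 and 3 in the libraries labelled knockdown, that is 0.147, 0.0439, 0.200 and 0.153 FPKM. Those numbers are at or near 3 reads, the limit that a count of 0 allows, so no ratio is given and a difference was not detectable at this depth. AGR2 thus had at least 4725 reads in each library where AGR3 had at most 4. Of 5 other protein-coding genes within 250 kb of AGR2 or AGR3, 4 were tested and 2 fell. TSPAN13, a tetraspanin directly beside AGR2, fell from 52.7 ± 0.433 to 39.8 ± 4.92 FPKM (log2 -0.40, limma adjusted p = 0.0242), with a p of 0.0959 without control replicate 1 and 0.0844 without control replicate 2. AHR, the aryl hydrocarbon receptor beside AGR3, fell from 6.69 ± 0.212 to 5.43 ± 0.487 FPKM (log2 -0.26, limma adjusted p = 0.0494), with a p of 0.126 and 0.178 without control replicate 1 or 2 and of 0.152 without the labelled knockdown replicate 1.

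REG4, a secreted lectin-like protein of the regenerating family, differed little. REG4 (ENSG00000134193; chromosome 1, 119794018 to 119811660, minus strand) had 34.2 and 38.5 FPKM in the controls and 42.3 and 47.9 FPKM in the libraries labelled knockdown, from 2101, 2645, 2551 and 2838 reads. The groups did not overlap, but the second control was closer to the first library labelled knockdown than to the first control. Means were 36.4 ± 3.06 and 45.1 ± 3.96 FPKM, a ratio of 1.24 and a log2 difference of 0.30. Among the 5 other protein-coding genes within 250 kb of REG4, 3 were tested and 1 fell: PHGDH, the first enzyme of serine synthesis, went from 47.6 ± 0.112 to 28.9 ± 0.406 FPKM (log2 -0.70, limma adjusted p = 0.000886).

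FCGBP, a large mucus protein that binds to secreted mucins, was nearly absent. FCGBP (ENSG00000275395; chromosome 19, 39863323 to 39934626, minus strand) had 0.254 and 0.181 FPKM in the controls and 0.210 and 0.1001 FPKM in the libraries labelled knockdown, from 58, 46, 47 and 22 reads. The groups overlapped, and the second library labelled knockdown was the lowest. Of 10 protein-coding genes near FCGBP, 3 were tested and 1, PSMC4, a proteasome subunit, rose (log2 0.23, limma adjusted p = 0.0106), with a p of 0.0570 and 0.0525 without the labelled knockdown replicate 1 or 2.

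In counts, 7 of the 9 genes passed the filter, and in each of these both group means were above 1 FPKM. AGR3 and FCGBP did not pass. Of the 7, 4 were called higher (TFF1, GAST, SPINK4 and REG4), against 16.8% of the 12777 genes tested, and 3 were called lower (TFF2, TFF3 and AGR2), against 13.0%. In either direction 29.9% of the genes tested were called. The libraries labelled knockdown were both above both controls in 4 of the 7 (35.9% of the genes tested) and both below in 3 (33.8%). Of the genes not tested, AGR3 lay above as well, on too few reads to compare, and the groups overlapped in FCGBP. In all, 69.7% of the genes tested had groups that did not overlap. Since the genes were chosen on this contrast, nothing is read from these shares. REG4 was called in the full comparison, but not with no filter on low values, with quantile normalization or with any 1 library left out. Its log2 difference ran from 0.22 to 0.39 with 1 library left out. Calls of the members describe them and do not test them.

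FPKM are per length of exon, so the levels of different genes can be put in order of FPKM. That length is the union of all annotated exons, not the length of the transcript expressed. The order of transcript numbers may therefore differ from the order given here. In the controls the order was AGR2, SPINK4, TFF1, REG4 and TFF2, each clear of the next in both libraries, then GAST and TFF3, whose values overlapped, and then FCGBP and AGR3. In the libraries labelled knockdown the order was TFF1, then SPINK4 and AGR2, whose values overlapped at 106.1 to 121.1 and 96.2 to 106.3 FPKM, then REG4, GAST, TFF2 and TFF3, and last FCGBP and AGR3, which overlapped. AGR2 stood at 2.31 and 2.39 times the level of SPINK4 in the controls and at 0.907 and 0.877 times in the libraries labelled knockdown. TFF1 thus stood below AGR2 and SPINK4 in the controls and above both in the other group, and GAST likewise in relation to TFF2.

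The genes whose pattern over the 4 libraries was most like that of a member were found by the root-mean-square difference of log2(FPKM + 1) after centring each gene, which here mostly matches the size of the group difference. For TFF1 these were MIR6075 (0.0524), LY6D (0.0691) and SDCBP2 (0.0706). LY6D had 3.73 and 4.52 FPKM in the controls and 18.4 and 20.6 FPKM in the libraries labelled knockdown, while MIR6075 was listed at 0 in both controls and rested on 5 reads in each of the others. For GAST they were LY6E (0.0728), AHNAK2 (0.0848) and PURPL (0.0903), of which LY6E had 8.16 and 7.09 FPKM against 25.5 and 26.2 FPKM. LY6D and LY6E are both on chromosome 8, as is PSCA, a gene followed below. Within 1 Mb of PSCA, 15 of 22 tested genes rose (median log2 difference 0.40), and the part of that regional rise in LY6D and LY6E was not tested. For TFF3 they were HOXA10 (0.0580), VWA2 (0.0590) and HIST3H2A (0.0844), and in each of them, as in TFF3, the first control was the highest library. For AGR2 they were CD7 (0.00956), ACAT2 (0.0175) and STARD4 (0.0267). ACAT2, a sterol synthesis enzyme, had 16.8 and 17.7 FPKM against 9.78 and 10.8 FPKM, and STARD4, a sterol carrier, had 12.6 and 13.5 FPKM against 7.22 and 8.51 FPKM.

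The partners, regulators, processing enzymes and relatives of the 9 genes were followed in 11 lists of 173 genes in all. Of these, 65 were tested, 17 rose, 15 fell and 33 were not called, and 38 were at 0 in each library. Their median log2 difference was -0.07, against 0.0011 over all genes tested, and 49.2% were called, beside 29.9% of all genes tested. Leaving out control replicate 1 gave 9 that rose and 12 that fell, and leaving out control replicate 2 gave 8 and 7. Leaving out the labelled knockdown replicate 1 gave 11 and 6, and leaving out its replicate 2 gave 6 and 11. The lists were drawn up with earlier results of these data known, and nothing particular to them is read from these shares.

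Gastrin needs cutting, trimming and amidation. Of 15 genes for these steps and for gastrin receptors, 6 were tested, 2 rose and 2 fell (median 0.06). CPE, the carboxypeptidase that trims cut prohormones, fell from 2.90 ± 0.157 to 0.554 ± 0.0628 FPKM (log2 -1.33, limma adjusted p = 0.00223) while GAST was higher. CPE passed the filter of a mean of at least 1 FPKM only through the controls. QPCTL, a glutaminyl cyclase of the Golgi, fell from 18.0 ± 0.205 to 11.4 ± 0.764 FPKM (limma adjusted p = 0.00264). PAM, the amidating enzyme, rose from 8.47 ± 0.301 to 9.95 ± 0.217 FPKM (limma adjusted p = 0.0324), and TPST1, a tyrosine sulfotransferase, from 4.25 ± 0.0354 to 5.43 ± 0.450 FPKM (limma adjusted p = 0.0364). Both calls were fragile: PAM had a p of 0.0768 and 0.129 without control replicate 1 or 2 and of 0.128 and 0.0897 without the labelled knockdown replicate 1 or 2, and TPST1 of 0.121 and 0.125 without control replicate 1 or 2 and of 0.1297 without the labelled knockdown replicate 2. The gastrin receptor CCKBR and the prohormone convertase PCSK2 were at 0 in each library, and CCKAR, CCK and PCSK1 were under 0.05 FPKM. All 25 enteroendocrine genes of their list were under the filter, 14 of them at 0 in each library. The other members of that list had few reads, for example 25 and 21 in the controls and 17 and 17 in the other libraries for SYP, a synaptic vesicle protein, and the highest level was 0.633 FPKM, for the hormone gene SCT.

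Among 6 secreted mucins only MUC5AC, the gastric surface mucin known for its partnership with TFF1, was tested. It fell from 1.59 ± 0.0574 to 0.559 ± 0.118 FPKM (limma adjusted p = 0.0175) while TFF1 was higher. MUC5AC passed the filter only through the controls. Its p was 0.0824 and 0.0682 without control replicate 1 or 2 and 0.0672 without the labelled knockdown replicate 1. Of the 54 tested genes within 1 Mb of MUC5AC, 42 fell, with a median log2 difference of -0.48, and the part of that regional shift in the fall of MUC5AC was not tested. In the list of 14 gastric mucosa genes, 2 were tested and 1, PSCA, a surface antigen of gastric epithelium, rose. It went from 0.881 ± 0.06003 to 3.30 ± 0.534 FPKM (limma adjusted p = 0.00368), within a region where 15 of 22 tested genes rose (median 0.40). PSCA passed the filter only through the libraries labelled knockdown. CTSE, a gastric aspartic protease, had 105.8 and 95.5 FPKM as group means (limma adjusted p = 0.126, 0.0320 without control replicate 1). Of 10 membrane mucins 2 were tested: MUC13 rose from 40.9 ± 3.27 to 52.7 ± 3.07 FPKM (limma adjusted p = 0.0194, 0.0615 without control replicate 1 and 0.0790 without the labelled knockdown replicate 2), and MUC20 had 1.94 and 1.38 FPKM (limma adjusted p = 0.0979).

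Of 23 regulators of the secretory lineages 14 were tested, 3 rose and 4 fell (median -0.13). HES1, the Notch target that represses secretory fate, fell from 40.9 ± 2.53 to 21.6 ± 0.310 FPKM (limma adjusted p = 0.00120), and FOXA1, a pioneer factor of foregut epithelium, from 55.0 ± 2.01 to 40.6 ± 2.26 FPKM (limma adjusted p = 0.00510). ELF3, an epithelial ETS factor, rose from 12.0 ± 1.31 to 18.3 ± 0.691 FPKM (limma adjusted p = 0.00735). SOX9 fell (fold change of FPKM + 1 of 0.877, limma adjusted p = 0.0119), with a p of 0.0570 without control replicate 1 and of 0.0607 and 0.0595 without the labelled knockdown replicate 1 or 2. Of 20 other goblet cell products 7 were tested and 3 rose (median 0.07). SYTL2, a granule docking protein, rose from 6.40 ± 0.108 to 10.3 ± 0.507 FPKM (limma adjusted p = 0.00252), and VAMP8, a granule SNARE, from 49.8 ± 4.80 to 69.3 ± 0.950 FPKM (limma adjusted p = 0.00852). RAB3D, a granule GTPase, rose (fold change of FPKM + 1 of 1.12, limma adjusted p = 0.0390), with a p of 0.129 and 0.1302 without control replicate 1 or 2 and of 0.1004 and 0.152 without the labelled knockdown replicate 1 or 2. SERPINA1 was not called (limma adjusted p = 0.0796).

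Of 22 enzymes of mucin-type O-glycosylation 14 were tested, 5 rose and 4 fell (median -0.00063). B3GNT3 rose from 37.8 ± 0.316 to 52.6 ± 0.330 FPKM (limma adjusted p = 0.00140) and GALNT5 fell from 8.69 ± 0.203 to 5.53 ± 0.0460 FPKM (limma adjusted p = 0.00240). GCNT3, a mucin core branching enzyme, rose from 1.30 to 2.79 FPKM as group means (limma adjusted p = 0.00901, 0.0507 without the labelled knockdown replicate 2). GALNT12 fell from 10.7 to 8.30 FPKM (limma adjusted p = 0.0148), with a p of 0.0607 without control replicate 2 and of 0.0526 and 0.0672 without the labelled knockdown replicate 1 or 2. AGR2 belongs to the protein disulfide isomerases, and of 18 others 16 were tested, 1 rose, 2 fell and 13 were not called (median -0.07, where the log2 difference of AGR2 was -0.66). ERO1A, the oxidase that recharges these enzymes, rose from 14.1 to 18.8 FPKM (limma adjusted p = 0.0162, and 0.0725 and 0.0653 without control replicate 1 or 2). TMX4 fell from 5.91 to 4.33 FPKM (limma adjusted p = 0.0184), with a p of 0.0770 without control replicate 2 and of 0.0768 and 0.0641 without the labelled knockdown replicate 1 or 2. PDIA6 fell from 89.0 to 75.3 FPKM (limma adjusted p = 0.0242), with a p of 0.0623 and 0.0975 without control replicate 1 or 2 and of 0.0782 without the labelled knockdown replicate 1. PDIA3 was not called in the full comparison (log2 -0.18, limma adjusted p = 0.0638). Its difference was -0.25 without control replicate 1 (limma adjusted p = 0.0486) and -0.12 without control replicate 2 (limma adjusted p = 0.186), and it was called lower by limma-voom, after quantile normalization and with a filter at a mean FPKM of 5.

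Of 6 receptors reported for trefoil peptides or AGR2, CXCR4 was at 0 in each library, and 2 were tested. LYPD3, a surface protein that binds AGR2, rose from 2.76 to 4.99 FPKM as group means (limma adjusted p = 0.0313), with a p of 0.0674 without control replicate 2 and of 0.0704 and 0.121 without the labelled knockdown replicate 1 or 2. DAG1, dystroglycan, fell from 53.7 to 48.2 FPKM (limma adjusted p = 0.0210), with a p of 0.0745 and 0.0867 without control replicate 1 or 2 and of 0.0820 and 0.0957 without the labelled knockdown replicate 1 or 2. Of 14 relatives in the REG, SPINK and P domain families, GAA, a lysosomal glucosidase that carries a trefoil domain, was the one gene tested, and it fell from 44.4 ± 1.30 to 33.1 ± 1.78 FPKM (limma adjusted p = 0.00495).

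**Figure D4:**
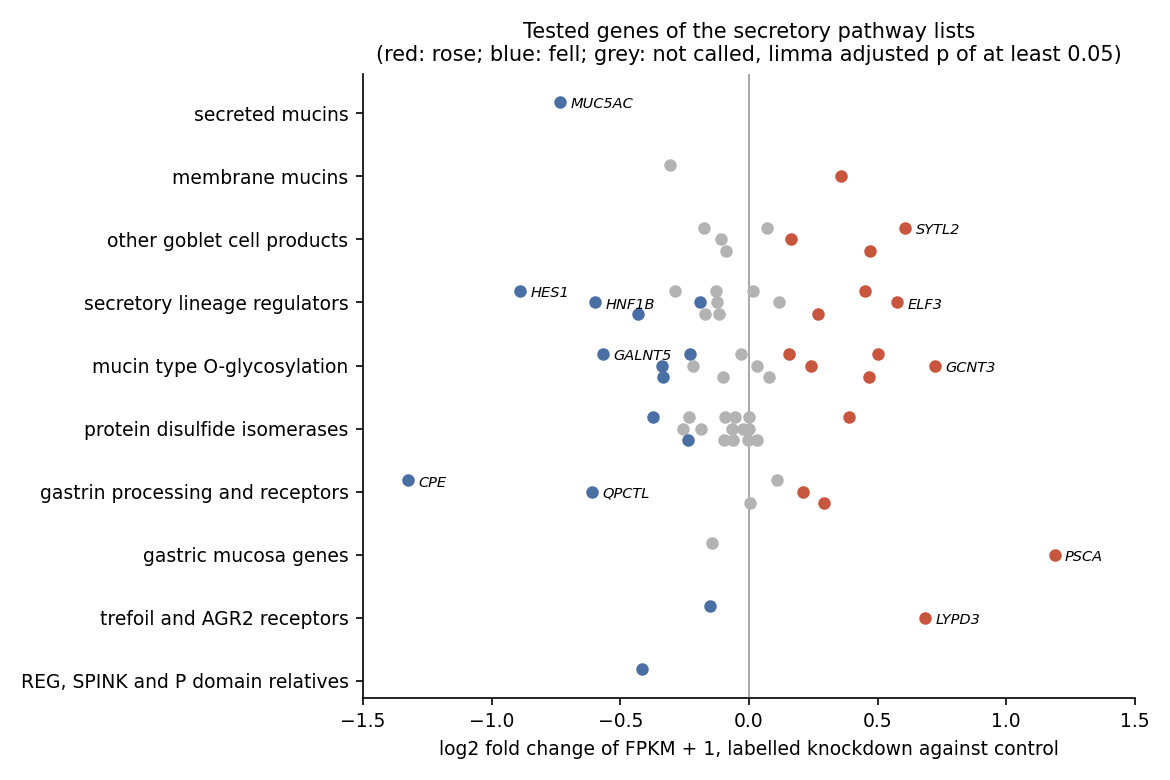
Log2 fold change of FPKM + 1 for each tested gene of the lists of partners, regulators and relatives, with genes that rose in red, genes that fell in blue and genes not called in grey. Both directions occur in the lists with most tested genes, and CPE at -1.33 and PSCA at 1.19 lie at the ends. CPE and PSCA each passed the filter only through the group in which they were higher.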

How the data were processed

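The 4 libraries were grouped by their genotype labels. Per the labels, total RNA taken up in Trizol went into Illumina libraries. HISAT2 2.0.5 and hg18 are named in the submitters' processing notes. Each library's table holds FPKM, computed by the authors from reads, exon length and library size. The counting tool and strand setting were not given in the sources used here. All 58735 gene IDs matched GENCODE 29 on GRCh38, whose coordinates are used. FPKM times the union exon length gave whole reads for 100% of values above 0, within 0.01 read. The divisor that the authors used was off the read totals by 1.37% and 0.895% in the controls and by -0.415% and -0.664% in the libraries labelled knockdown.

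The 12777 genes whose mean FPKM reached 1 entered limma-trend (limma 3.58.1, R 4.3.3) as log2(FPKM + 1), with group as the only term, Benjamini-Hochberg adjustment over all genes tested, two-sided. The fit was tested on simulated data in which far fewer genes changed than were called here, all with a mean FPKM of at least 5. Changes in genes below that level were not covered. The 9 members and all gene lists were chosen with earlier results of these data known. Besides the members and PPDPF, the text names protein-coding genes within 250 kb of a member where called or directly beside one, up to 4 tested genes per list with the smallest p, and 3 genes most like TFF1, TFF3, GAST and AGR2. Alternatives were a pseudocount of 0.1, no filter, a filter at a mean FPKM of 5, quantile normalization, scaling to reads in genes (members), limma-voom on recovered reads, the replicate number as a block and leaving out each library. Tables and figures were made in Python 3.11.15 with pandas 2.3.3 and matplotlib 3.10.9.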

Additional observations from a re-analysis of the deposited data

How the results depend on the processing

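Over all genes, 2152 rose and 1662 fell. With no filter on low values these counts were 1134 and 734, with limma-voom 2709 fell (2502 rose), and with 1 library left out 1141 to 1345 rose and 775 to 919 fell. In the lists of partners, regulators and relatives, 17 rose and 15 fell, against 5 and 8 with no filter, 26 that fell with limma-voom, and 6 to 11 that rose and 6 to 12 that fell with 1 library left out. With no filter more genes were tested (28965), and with a library left out a group of 1 was assumed to vary like the other. For the rest the cause was not tested. The share of calls that were higher was 56.4%, and 48.0% with limma-voom and 50.8% with quantile normalization. The 7 tested members kept their direction in each setting run, while for AGR3 and FCGBP no direction is read. With a pseudocount of 0.1 the differences moved to -1.47 for TFF3, 1.81 for GAST, 0.55 for AGR3 and -0.34 for FCGBP, from -1.13, 1.65, 0.10 and -0.08. With no filter the members called were TFF1, GAST and SPINK4 (higher) and AGR2 (lower). REG4 was also not called with quantile normalization or with any 1 library left out. Since the members were chosen on this contrast, these calls are no test of them. Among 44 other named genes none reversed, and 18 calls were lost with no filter, KRT19 (0.0571) and VAMP8 (0.0550) among them. PPDPF was called higher with limma-voom (adjusted p = 0.0105), with a mean FPKM of at least 5 (0.0459) and without control replicate 2 (0.0233), but not with the other 7 settings (0.0657 to 0.281). Same-numbered libraries did not deviate together (r = -0.0021 across 12777 genes). That value cannot tell whether they were prepared together, so the fit was also run with the replicate number as a block. With the replicate block 1899 rose and 1405 fell over all genes, 13 and 15 in the lists, and the members' differences were the same. The block ended the calls of KLHL11 (0.0672), RAB3D (0.0653), TPST1 (0.0545) and LYPD3 (0.0509) and called PDIA3 (0.0241). Genes under about 3 reads, such as AGR3, cannot be compared at this depth.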
